A study of Mus musculus with 6 samples.

Results

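Metalloproteinase inhibitors, matrix metalloproteinases and the urokinase branch of plasminogen activation were followed in Neuro-2a cells through 9 genes: Timp1, Timp2, Timp3, Mmp2, Mmp9, Mmp14, Mmp15, Plau and Plaur. The 9 were taken by symbol from a table of 21878 rows. They were chosen by the FPKM values of Timp1, which stood higher in both treated groups than in control cells. Expression was measured by RNA sequencing with a stranded mRNA kit in 3 groups of 2 libraries. Neuro-2a is a mouse neuroblastoma line. Control cells are labelled wild type, with no empty vector or scrambled RNA named. The second group overexpresses the long noncoding RNA lncPim1, and in the third lncPim1 was lowered by RNA interference. The series title speaks of an injury by ACR, which the labels of these libraries do not mention. The labels name no construct, silencing sequence, dose or time. They also leave unsaid whether the 2 libraries per group are separate cultures. All p-values therefore measure nothing beyond library-to-library spread, possibly technical in origin.

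Matrix metalloproteinases are zinc-dependent enzymes that cut collagens, other matrix proteins and cell-surface proteins. They are made as inactive proenzymes, and TIMP proteins hold them in check by binding the active site. Urokinase, bound to its receptor, turns plasminogen into plasmin, which degrades fibrin and can activate several proenzymes. In neurons and neuroblastoma these systems act at growth cones and in cell migration.

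Values are FPKM, fragments scaled to transcript length and library size, so levels can be compared between genes. Summed FPKM lay between 272528 and 305463 per library. Absolute depth is unknown, and relative depth, read from the steps between low values, lay between 0.891 and 1.08 of that of control 1. lncPim1 was not analysed here, since 0 rows carry its name, so the labels were not checked on the targeted RNA. Knockdown libraries stood apart from the other 4 on the first principal component, which carried 70.1% of the variance. Of 17 sympathetic neuroblast markers, 13 had a mean of at least 1 FPKM, among them Phox2a and Hand2, whereas Dbh stayed below 1 FPKM.

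Metalloproteinases and TIMPs are abundant in fibroblasts and macrophages, so markers of those cells were read beside them. The defining leukocyte genes Ptprc, Adgre1, Csf1r and Itgam reached at most 0.0307 FPKM, and the collagen genes Col1a1, Col1a2 and Col3a1 with Lum at most 0.234 FPKM. Fap and the endothelial gene Cldn5 were listed at 0 in all 6 libraries. Among the other fibroblast markers, Pdgfrb (0.819 to 1.33 FPKM on average) and Pdgfra (0.673 to 1.12) stood higher under knockdown than in control cells. Dcn (0.494 to 0.0948) and Thy1 (0.0408 to 0) stood lower. Over 9 fibroblast markers the summed level was 1.96 and 2.39 FPKM in control cells, 2.41 and 2.16 under overexpression, and 2.72 and 2.82 under knockdown. Over 11 macrophage and leukocyte markers it was 7.81 and 7.21, 5.64 and 5.27, and 9.41 and 9.66, most of it from Lyz2 and, under knockdown, Cd68. Cd68, the gene of a lysosomal membrane protein abundant in macrophages, stood at 0.348 and 0.397 FPKM in control cells, 0.528 and 0.570 under overexpression, and 3.31 and 4.31 under knockdown, 10.2 times the control mean. Tyrobp (0.0615 to 0.496 FPKM on average) and Aif1 (0.0216 to 0.142) also stood higher under knockdown than in control cells, while Lyz2 (6.67 to 4.85) and Cd14 stood lower. The knockdown and control libraries of Mrc1 overlapped. A list of 10 digestive-tract genes, drawn up from earlier results of these data, summed to between 22.8 and 34.3 FPKM in the control and overexpression libraries and to 0.623 and 0.547 under knockdown. Endothelial markers summed to 1.96 to 2.83 FPKM, epithelial markers to 2.29 to 3.06 outside knockdown and 1.73 and 1.27 under it, and glial markers to 0.611 to 1.09. The part of these low transcripts in the values below was not tested.

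In control cells the membrane-bound enzyme gene Mmp15 was the most abundant of the 9, at 55.6 ± 3.0 FPKM (SD, n = 2). Plaur followed at 22.3 ± 1.73 and Timp2 at 19.6 ± 0.360, and then came Timp1 at 3.18 ± 0.601 and Mmp9 at 2.47 ± 0.621, whose libraries overlapped. Mmp2 (0.371 ± 0.0763 FPKM) and Timp3 (0.297 ± 0.0639) also overlapped, and Plau (0.161 ± 0.0648) and Mmp14 (0.00524 ± 0.00741) were lowest. Under knockdown the gap at the top had closed, with Mmp15 at 24.5 ± 2.21 and Plaur at 23.9 ± 0.533 FPKM and overlapping libraries. Under overexpression no neighbours in the order overlapped.

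**Figure D1:**
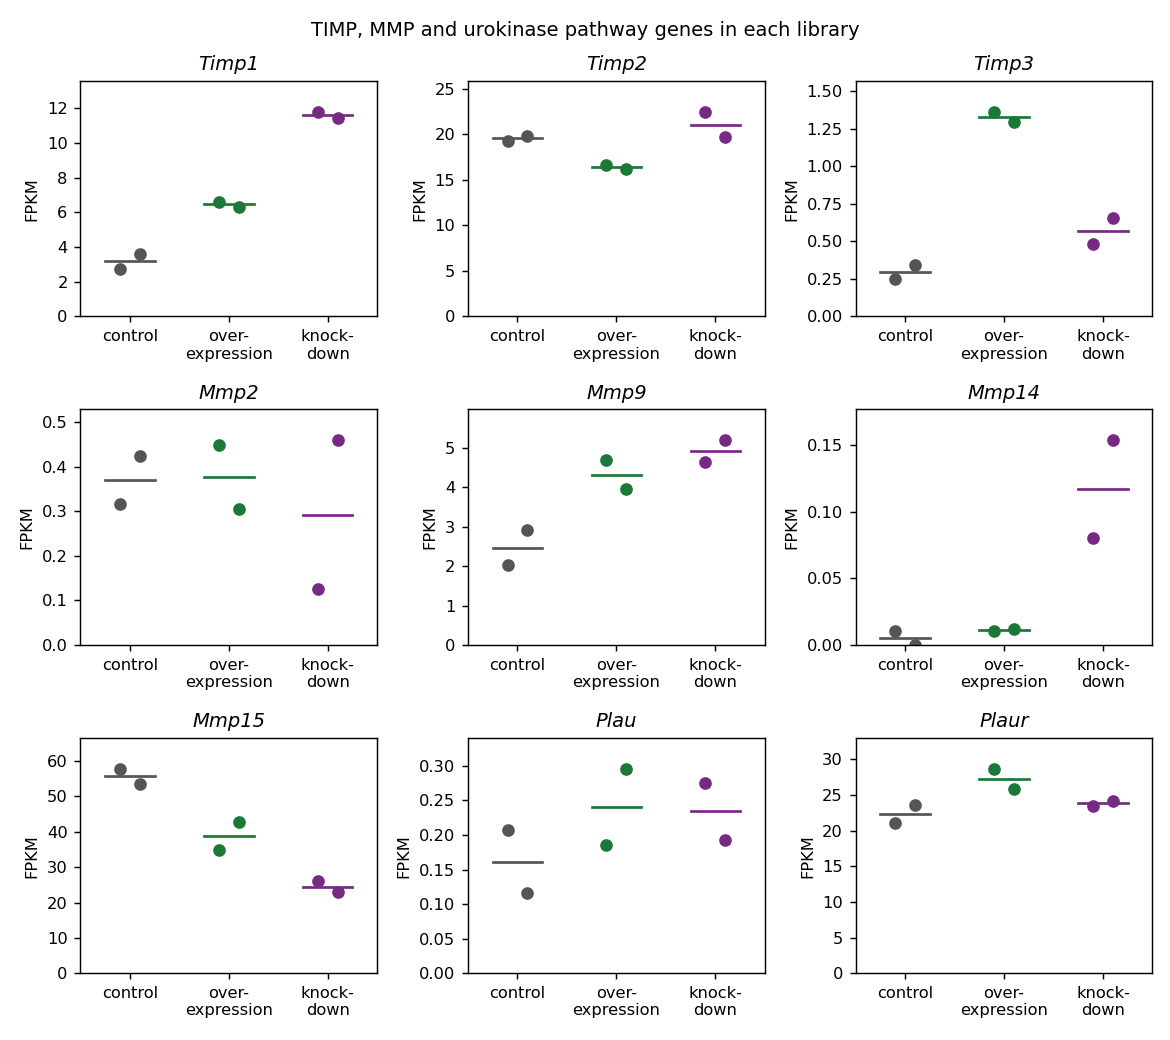
FPKM of the 9 genes in each library, on a linear axis that starts at 0 and differs between panels. Points are the 2 libraries of a group, lines their mean: Timp1 went from 3.18 FPKM in control cells to 11.6 under knockdown, while Mmp15 went from 55.6 to 24.5.

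Testing required 1 FPKM or more on average across libraries, which 5 of the 9 reached (Timp1, Timp2, Mmp9, Mmp15 and Plaur), each with a control mean above 1 FPKM. Differences are given as log2 fold changes of FPKM + 1, with the standard error (SE) of a limma model fitted to 10721 genes, and a gene was called at a Benjamini-Hochberg adjusted p under 0.05. Since Timp1 was the reason for the choice, it is left out of counts against control. Under overexpression 1 of the other 4 tested genes was called, Mmp15, which was lower. Among all tested genes 1.54% were called there, 0.69% higher and 0.849% lower. Under knockdown 2 of 4 were called, Mmp9 higher and Mmp15 lower, a share near that of all tested genes, of which 46.2% were called, 14.8% higher and 31.3% lower. In overexpression against knockdown 3 of 5 were called, Mmp15 higher and Timp1 and Timp2 lower, beside 40.5% of all tested genes, 28.1% higher and 12.4% lower. Libraries of the groups did not overlap for 4 of 4 genes under overexpression (49.5% of tested genes), 2 of 4 under knockdown (74.4%) and 4 of 5 between the treated groups (71.9%). Both comparisons with control use the same 2 control libraries, and the median over all tested genes was -0.0031 under overexpression and -0.070 under knockdown. In bulk RNA, a change in the number of cells that make a transcript and a change in transcript per cell cannot be told apart.

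**Figure D2:**
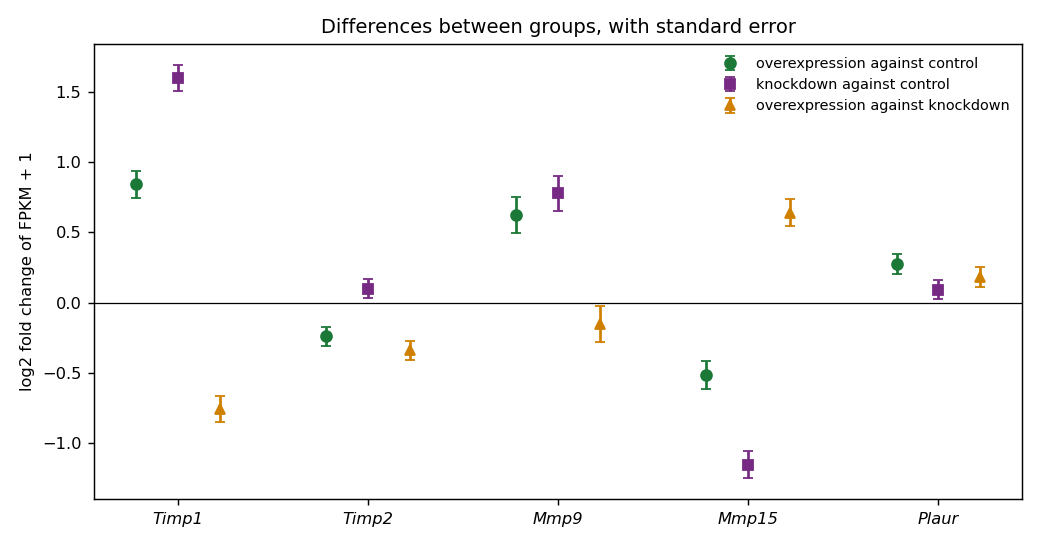
Log2 fold change of FPKM + 1 for the 5 tested genes in the 3 comparisons. Bars are standard errors from limma, with 2 libraries per group: Mmp15 lay at -0.52 under overexpression and -1.16 under knockdown, on the other side of 0 from Timp1 and Mmp9.

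Timp1 encodes a secreted inhibitor of most matrix metalloproteinases, which also signals through the tetraspanin CD63. Its control libraries held 2.76 and 3.61 FPKM, its overexpression libraries 6.61 and 6.31, and its knockdown libraries 11.8 and 11.5. The 3 groups were separate, control cells lowest and knockdown cells highest. Mean FPKM was 2.03 times the control mean under overexpression and 3.65 times under knockdown. On the log2 scale these differences were 0.84 ± 0.09 (SE) and 1.60 ± 0.09. They are the values that led to the choice of genes and are given without a test. The order of the treated groups was not part of that choice, and Timp1 was lower under overexpression than under knockdown (log2 fold change -0.76 ± 0.09, limma, adjusted p = 7.33e-04). This call stood with each of the 6 libraries left out, at -0.79 to -0.73.

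In build GRCm38 (GENCODE M21), Timp1 spans 20870166 to 20874735 of chromosome X, plus strand, inside the synapsin gene Syn1, which runs the other way. The exons of the genes share 0 bases. Syn1, which encodes a coat protein of synaptic vesicles, stood at 19.8 and 18.4 FPKM in control cells, 16.5 and 16.2 under overexpression, and 11.9 and 12.4 under knockdown, so it moved opposite to the gene it contains. Its fall under knockdown was 0.61 on the log2 scale (limma, adjusted p = 1.79e-04), and under overexpression it was not called (limma, adjusted p = 0.121).

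Promoter windows from RefSeq (build GRCm38.p6), of 250 bases before and 50 after the start, were found for 6 of the 9 genes: Timp1, Timp2, Timp3, Mmp14, Mmp15 and Plaur. Those of Timp1 and Mmp15, the genes furthest apart in direction, and of Plaur, which holds a consensus AP-1 match, are shown 5′ to 3′ on the plus strand, up to the first base annotated as transcribed. Capitals mark matches to TGANTCA, the AP-1 consensus.
Timp1, chrX:20869916-20870165: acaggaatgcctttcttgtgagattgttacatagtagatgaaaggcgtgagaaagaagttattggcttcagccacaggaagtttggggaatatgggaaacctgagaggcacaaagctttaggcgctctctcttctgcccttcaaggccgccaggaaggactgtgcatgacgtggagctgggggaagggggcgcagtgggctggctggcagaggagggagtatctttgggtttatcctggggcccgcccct
Mmp15, chr8:95352046-95352267: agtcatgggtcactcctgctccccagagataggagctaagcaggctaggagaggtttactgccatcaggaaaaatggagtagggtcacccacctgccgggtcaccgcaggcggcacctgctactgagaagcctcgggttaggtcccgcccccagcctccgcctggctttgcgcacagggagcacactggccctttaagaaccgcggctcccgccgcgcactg
Plaur, chr7:24462233-24462482: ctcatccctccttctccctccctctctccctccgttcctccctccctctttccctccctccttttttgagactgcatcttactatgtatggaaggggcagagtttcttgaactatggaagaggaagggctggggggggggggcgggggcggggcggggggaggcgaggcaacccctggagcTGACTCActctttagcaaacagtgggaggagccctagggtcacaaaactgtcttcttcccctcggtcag
On both strands TGANTCA was found in the window of 1 of the 6 genes, Plaur, starting 69 bases before the start, and in 7.81% of all 32851 windows. The variant TGAGTAA, known as the AP-1 site of Timp1 and searched after the sequence was seen, begins at base 27 after the RefSeq start of Timp1 and occurs in 2.68% of windows. It is shown in capitals with its surroundings.
Timp1, chrX:20870181-20870209: cggtgggtggaTGAGTAAtgcgtccagga
The Sp1 motif GGGCGG was found in the windows of all 6 genes and in 35.7% of all windows. The ETS motif AGGAAG occurred in 4 of the 6 (Timp1, Timp3, Mmp14 and Plaur) and in 35.4% of all windows. These are matches of letters and were not tested for binding.

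Timp2 encodes the inhibitor that, besides blocking metalloproteinases, helps the membrane enzyme MT1-MMP activate pro-MMP2. It stood at 19.3 and 19.8 FPKM in control cells, 16.7 and 16.2 under overexpression, and 22.5 and 19.7 under knockdown. Overexpression libraries were lowest, and those of control and knockdown overlapped. Against control it was not called under overexpression (-0.24 ± 0.07, limma, adjusted p = 0.126) or knockdown (0.10 ± 0.07, limma, adjusted p = 0.256). Under knockdown it was called after quantile normalization (limma, adjusted p = 0.0399) and without knockdown 2 (limma, adjusted p = 0.0421, log2 fold change 0.19). Directly compared, Timp2 was lower under overexpression than under knockdown (-0.34 ± 0.07, limma, adjusted p = 0.00483), a call that held with each library left out. Timp2 spans 118301069 to 118355740 on the minus strand of chromosome 11.

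Timp3 encodes the TIMP that binds to the matrix and also inhibits ADAM17. It stood at 0.252 and 0.342 FPKM in control cells, 1.36 and 1.3 under overexpression, and 0.481 and 0.657 under knockdown. The 3 groups did not overlap, and here overexpression cells were highest, unlike for Timp1. Its means were 4.47 and 1.91 times control, but Timp3 was under the filter, with 0.731 FPKM on average. In a fit without that filter it was higher under overexpression than under knockdown (0.57 ± 0.07, limma, adjusted p = 0.00896) and under knockdown than in control cells (0.27 ± 0.07, limma, adjusted p = 0.0463). Its difference under overexpression, 0.84 ± 0.07, had a limma adjusted p of 0.0545 in that fit, which called 9 genes in all in this comparison.

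Timp3 spans 86300372 to 86349506 of chromosome 10, plus strand, and lies inside Syn3, a second synapsin gene on the opposite strand. The genes share 1733 exonic bases, 21.3% of those of Timp3, and no source names the strand setting of the counting, so reads of that stretch cannot be assigned. Syn3 stood at 0.530 and 0.515 FPKM in control cells, 0.492 and 0.512 under overexpression, and 0.309 and 0.356 under knockdown. Overexpression and control libraries of Syn3 thus lay close together, and the knockdown libraries lay below them.

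Mmp15 encodes the membrane-bound metalloproteinase MT2-MMP, which cuts matrix proteins at the cell surface and can activate pro-MMP2. The control libraries held 57.8 and 53.5 FPKM, the overexpression libraries 34.8 and 42.8, and the knockdown libraries 26.0 and 22.9. None of the groups overlapped, with control cells highest and knockdown cells lowest. It fell under knockdown by 1.16 on the log2 scale (SE 0.10, limma, adjusted p = 1.33e-04), to 0.440 times the control mean, in both libraries and with each library left out (-1.24 to -1.07). Its fall under overexpression was smaller, at -0.52 ± 0.10 (limma, adjusted p = 0.0444), or 0.697 times the control mean. The difference between the treated groups was 0.64 ± 0.10 (limma, adjusted p = 0.00161).

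The overexpression call of Mmp15 was lost without control 1 (limma, adjusted p = 0.267), control 2 (0.121) or overexpression 1 (0.193), and after quantile normalization (0.0553), without the expression trend (0.0884) and without a filter (0.184). Its value then lay between -0.57 and -0.37. Mmp15 spans 95352268 to 95375080 on the plus strand of chromosome 8.

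Mmp9 encodes gelatinase B, a secreted enzyme that cuts denatured collagen and basement membrane collagen, and it lies on chromosome 2 from 164940780 to 164955850. It stood at 2.03 and 2.91 FPKM in control cells, 4.70 and 3.95 under overexpression, and 4.63 and 5.19 under knockdown. Both treated groups lay above control and overlapped each other. Mmp9 rose under knockdown by 0.78 ± 0.13 (limma, adjusted p = 0.00156), to 1.99 times the control mean, and this call held with each library left out. Under overexpression the difference, 0.62 ± 0.13, missed the threshold (limma, adjusted p = 0.0525), and after median log ratio scaling of the libraries it was called (limma, adjusted p = 0.0442). The treated groups were not told apart (-0.15 ± 0.13, limma, adjusted p = 0.353).

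Mmp14 encodes MT1-MMP, the main membrane-bound collagenase and activator of pro-MMP2, and was close to undetected. Control 1 held 0.0105 FPKM and control 2 was listed at 0, the overexpression libraries held 0.0101 and 0.0117, and the knockdown libraries 0.0805 and 0.154. Corrected for relative depth, these values stood to one another as 1, 0, 1, 1, 8 and 16, as whole fragments would. Knockdown libraries were thus above the other 4, on a handful of fragments, and no fold is given. Mmp2, the gene of gelatinase A, the best known target of the membrane enzymes, stood at 0.317 and 0.425 FPKM in control cells, 0.448 and 0.306 under overexpression, and 0.125 and 0.460 under knockdown. All 3 groups overlapped, and the knockdown libraries lay at the lowest and the highest of the 6 values.

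Plau encodes urokinase. Control cells held 0.207 and 0.115 FPKM, overexpression cells 0.185 and 0.296, and knockdown cells 0.275 and 0.193, with all groups overlapping. The smallest whole numbers in these proportions, after correction for depth, were 11, 6, 10, 14, 15 and 11, so each value may rest on few fragments. Plau and Mmp14 both lie on chromosome 14, at 20836660 to 20843385 and 54431612 to 54445364. Mmp2 shares chromosome 8 with Mmp15, from 92827291 to 92853420.

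The urokinase receptor gene Plaur, which encodes a protein anchored in the outer membrane that gathers urokinase at the cell surface, was far more abundant than its ligand. It stood at 21.1 and 23.6 FPKM in control cells, 28.7 and 25.8 under overexpression, and 23.5 and 24.2 under knockdown. Overexpression libraries lay above all others, and those of control and knockdown overlapped. Plaur was not called under overexpression (0.28 ± 0.07, limma, adjusted p = 0.103), knockdown (0.09 ± 0.07, limma, adjusted p = 0.312) or between the treated groups (0.18 ± 0.07, limma, adjusted p = 0.0660). It was called under knockdown after quantile normalization (limma, adjusted p = 0.0467), and between the treated groups without overexpression 2 (limma, adjusted p = 0.0469). Plaur spans 24462484 to 24475968 on chromosome 7.

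Summed over Timp1, Timp2 and Timp3, inhibitor FPKM was 22.3 and 23.8 in control cells, 24.6 and 23.8 under overexpression, and 34.8 and 31.8 under knockdown. Knockdown libraries lay above all others, and the lower overexpression library was level with the higher control library. Timp1 supplied 12.3% and 15.2% of it in control cells, 26.8% and 26.5% under overexpression, and 33.9% and 36.0% under knockdown. Summed over Mmp2, Mmp9, Mmp14 and Mmp15, enzyme FPKM was 60.1 and 56.9 in control cells, 40.0 and 47.0 under overexpression, and 30.9 and 28.7 under knockdown. Mmp15 supplied between 79.8% and 96.1% of that sum. Inhibitor FPKM per FPKM of these 4 enzyme genes was therefore 0.371 and 0.418 in control cells, 0.616 and 0.505 under overexpression, and 1.13 and 1.11 under knockdown. These sums contain Timp1 and were chosen with the results known, so they are descriptions without a test, of mRNA and not of protein or activity. The enzyme sum leaves out 6 other tested matrix metalloproteinase genes, and with them the ratio would be lower in every library. Among the 6 are Mmp11, with means of 11.5 FPKM in control cells and 11.1 under knockdown, and Mmp24, with 7.98 and 7.58.

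**Figure D3:**
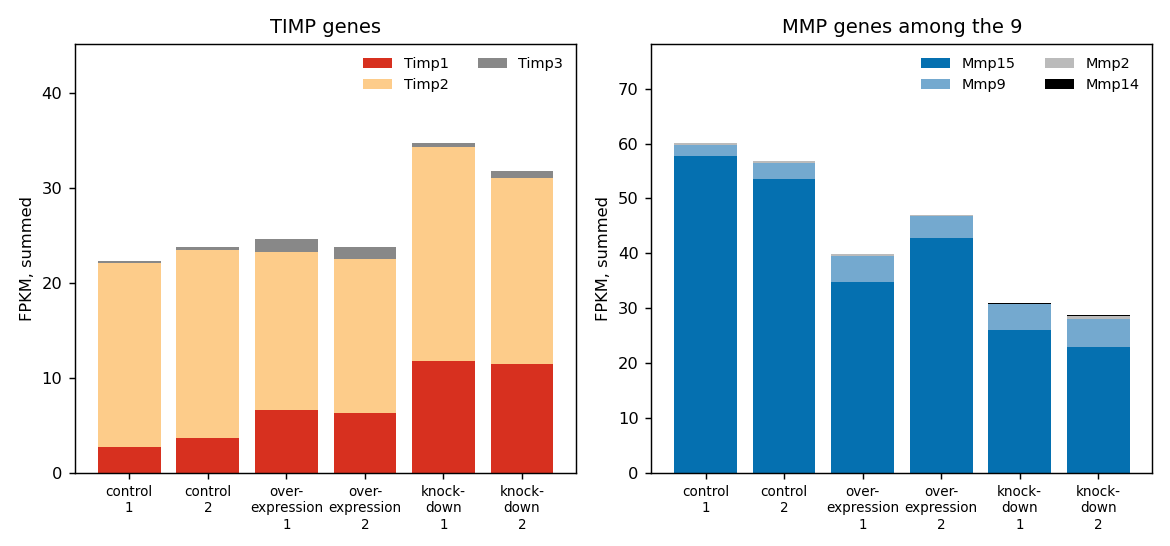
FPKM summed over 3 TIMP genes (left) and 4 matrix metalloproteinase genes (right) in each of the 6 libraries, as bars stacked by gene on linear axes from 0. The enzyme sum goes from 60.1 and 56.9 in control cells to 30.9 and 28.7 under knockdown, most of it Mmp15.

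Of 91 further genes in 6 lists of related proteases, inhibitors and partners, 38 were tested. Under overexpression limma called 0 of the 38, beside 1.54% of all tested genes. An unadjusted limma p under 0.05 was found for 14. The share of all tested genes at that level was not computed, so the 14 cannot be read as a result about these lists. Under knockdown 13 were higher and 7 lower, beside 14.8% higher and 31.3% lower among all tested genes. Of the 13 higher, 4 had a control mean under 1 FPKM and passed the filter only through the treated groups, where they stood higher, and 9 did not depend on it.

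Of 8 tested genes of the plasminogen system, 4 were higher and 1 lower under knockdown. Of the 4, 1 passed the filter only through the treated groups. Among all tested genes 14.8% were higher and 31.3% lower, a split that moved with the scaling of the libraries. The median log2 fold change was 0.20 over the 8 genes and -0.070 over all tested genes. Plat, the gene of tissue plasminogen activator, the main activator in neurons, stood at 9.14 and 9.19 FPKM in control cells, 10.3 and 9.80 under overexpression, and 15.0 and 13.4 under knockdown, a rise of 0.58 ± 0.07 under knockdown (limma, adjusted p = 3.37e-04). It was thus far above Plau in every library. Lrp1, the endocytic receptor that clears plasminogen activators bound to inhibitors, went from 1.67 ± 0.00159 to 3.41 ± 0.0242 FPKM (SD, n = 2; limma, adjusted p = 2.48e-04), and the annexin gene Anxa2, a plasminogen-binding surface protein, was also called higher. The Anxa2 call (0.22 ± 0.07, limma, adjusted p = 0.0222) was lost without control 1 (0.163), without knockdown 1 (0.0932) and without a filter (0.0673). Under overexpression Anxa2 (0.32 ± 0.07, limma, adjusted p = 0.0559) was called after quantile normalization (0.0493) and with median log ratio scaling (0.0410). Eno1, a glycolytic enzyme that also binds plasminogen, fell by 0.25 on the log2 scale (limma, adjusted p = 0.00814), a call lost without control 2 (0.0600), without knockdown 1 (0.0665) and after quantile normalization (0.168). Plg, the gene of plasminogen itself, reached at most 0.159 FPKM and Serpine2, which encodes the activator inhibitor protease nexin-1, at most 0.213, and neither was tested.

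Compared with knockdown, overexpression cells held less Plat (-0.46 ± 0.07, limma, adjusted p = 0.00136), Lrp1 (-0.53 ± 0.08, 0.00130) and Serpini1 (-0.42 ± 0.08, 0.00467), the neuroserpin gene, whose product inhibits tissue plasminogen activator in brain. These 3 calls held with each library left out, as did that of Eno1, which was higher (0.38 ± 0.06, 0.00178).

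Among other matrix metalloproteinases 6 of 19 were tested, and under knockdown 2 were higher and 0 lower, beside 14.8% and 31.3% of all tested genes. Mmp23, an enzyme with an unusual membrane anchor, stood at 0.971 and 0.892 FPKM in control cells and 1.83 and 1.90 under knockdown (0.57 ± 0.09, limma, adjusted p = 0.00170). It passed the filter only through the treated groups, and its call held in the fit without a filter. Mmp17, which encodes the lipid-anchored MT4-MMP, rose by 0.26 ± 0.07 (limma, adjusted p = 0.0129), a call lost without control 1 (0.0840) or knockdown 1 (0.0699). It was also lower under overexpression than under knockdown (-0.42 ± 0.07, limma, adjusted p = 0.00196). Reck, the gene of a membrane-anchored inhibitor of several metalloproteinases, was not called under knockdown (0.25 ± 0.10, limma, adjusted p = 0.0652). Its control mean was 0.939 FPKM, so it too passed the filter only through the treated groups, where it stood higher. Reck was called under knockdown with median log ratio scaling (limma, adjusted p = 0.0389) and without the expression trend (0.0270). Without knockdown 2 its log2 fold change was 0.35. These fits used the same filter and so share that limit.

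Proprotein convertases cleave the propeptides of membrane-type metalloproteinases. Of 5 tested, 1 was higher and 2 lower under knockdown, beside 14.8% and 31.3% of all tested genes. Furin went from 11.5 ± 0.690 to 15.3 ± 0.686 FPKM (SD, n = 2; 0.38 ± 0.06, limma, adjusted p = 0.00159). Pcsk6, the gene of PACE4, went from 11.1 ± 0.20 to 6.92 ± 0.334 FPKM (-0.62 ± 0.06, limma, adjusted p = 1.86e-04), and Mbtps1, a convertase of the Golgi that acts on membrane-bound transcription factors, fell by 0.43 (limma, adjusted p = 5.37e-04). Convertases thus did not move in 1 direction. Overexpression cells held more Pcsk6 (0.52 ± 0.06, limma, adjusted p = 5.9e-04) and Mbtps1 (0.40 ± 0.06, 0.00112) than knockdown cells and less Furin (-0.39 ± 0.06, 0.00190).

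In the adamalysin list, of membrane sheddases and secreted aggrecanases, 4 of 10 tested genes were higher and 3 lower under knockdown. Of all tested genes, 14.8% were higher and 31.3% lower there. Of the 4, Adam22 (0.893 FPKM in control cells) and Adamts6 (0.944) passed the filter only through the treated groups, which leaves Adam15 and Adamts4. Adam15 (0.19 ± 0.06, limma, adjusted p = 0.0193) lost its call without control 1 (log2 fold change 0.17) or knockdown 1 (0.14). Adam19 fell by 0.33 (limma, adjusted p = 9.68e-04) and Adamts4, an aggrecanase gene, rose by 0.41 ± 0.08 (limma, adjusted p = 0.00416). Adam10 (-0.28 ± 0.06, limma, adjusted p = 0.00617) and Adam17 (-0.30 ± 0.07, 0.0102), the main sheddases of the cell surface, were called lower. Adam10 lost its call without control 2 (0.0518) and after quantile normalization (0.0542), and Adam17 without control 1 (0.0764) or knockdown 1 (0.0501). Against knockdown, overexpression cells held more Adam10 (0.44 ± 0.06, limma, adjusted p = 0.00109) and Adam17 (0.35 ± 0.07, 0.00594), and less Adam15 (-0.28 ± 0.06, 0.00483) and Adamts4 (-0.36 ± 0.08, 0.00942). The Adamts4 call was lost without knockdown 1 (0.0511). Of 8 tested binding partners, 2 were higher and 1 lower under knockdown, beside the same 14.8% and 31.3%. Lcn2, whose product lipocalin-2 forms a complex with MMP9, stood at 14.2 and 20.5 FPKM in control cells, 32.1 and 21.3 under overexpression, and 32.3 and 45.6 under knockdown (1.12 ± 0.22 under knockdown, limma, adjusted p = 0.00383). Cd82, a tetraspanin gene, rose by 0.47 ± 0.10 (limma, adjusted p = 0.00659). Sdc1, a heparan sulfate proteoglycan gene, fell by 0.24 (limma, adjusted p = 0.00944), a call lost without control 1 (0.0528) and after quantile normalization (0.119). The integrin genes Itgb3 (0.34 ± 0.10, limma, adjusted p = 0.0261) and Itgav (0.18 ± 0.06, 0.0459), whose products pair as a vitronectin receptor, were higher under overexpression than under knockdown, and neither call was stable. Itgav lost it with each of the 6 libraries left out (0.0572 to 0.188), with only the 4 libraries compared (0.0575), after quantile normalization (0.112), without a filter (0.0684) and with median log ratio scaling (0.191). Itgb3 lost it without overexpression 1 (0.121), overexpression 2 (0.0536) or knockdown 2 (0.141, log2 fold change 0.20), without a filter (0.0935) and with median log ratio scaling (0.0585). The Timp1 receptor gene Cd63 stood at 124.2 ± 7.94 FPKM in control cells and 127.2 ± 4.72 under knockdown (limma, adjusted p = 0.640), and it was called after quantile normalization (0.0138).

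**Figure D4:**
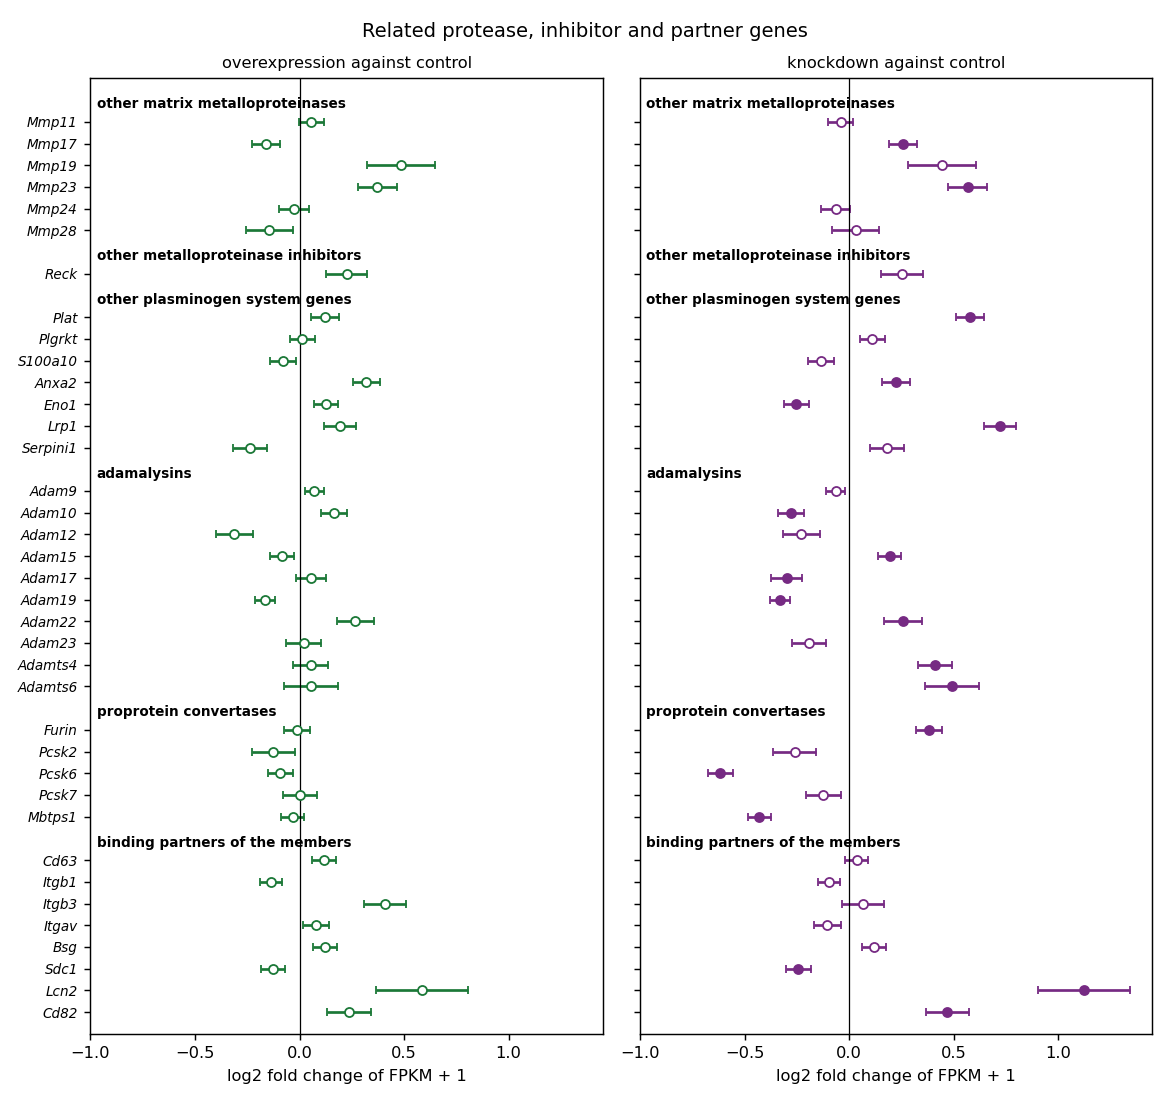
Log2 fold change of FPKM + 1, with standard error, of the 38 tested related genes except 1 not reported here, under overexpression (left) and knockdown (right), both against the same 2 control libraries. Filled points passed an adjusted p of 0.05 in limma: 0 on the left, and on the right Lcn2, Lrp1 and Plat lie furthest above 0 and Pcsk6 furthest below.

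The genes whose profile lay nearest to that of Timp1 were found by the root mean square difference, over the 6 libraries, of log2(FPKM + 1) minus the control mean. Plekhg1, which encodes an exchange factor for small GTPases, was nearest at 0.121, with 2.39 and 2.22 FPKM in control cells, 4.65 and 4.75 under overexpression, and 8.60 and 8.45 under knockdown. Zfp36 (0.248), the tristetraprolin gene, the cytokine gene Il6 (0.311), the chemokine gene Cxcl2 (0.332), the stress-induced cytokine gene Gdf15 (0.340) and Sh2d5 (0.354), an adaptor gene, followed. The 6 genes were picked for this likeness in the same libraries, so their closeness to Timp1 is a description without a test. Under knockdown the differences of Zfp36 (1.63) and Plekhg1 (1.53) were close to that of Timp1, and that of Cxcl2 was larger (1.99). Under overexpression Plekhg1 lay at 0.79 and the other 5 between 0.35 and 0.54. Median log ratio scaling kept all 6 genes, and a pseudocount of 0.1 kept 2, Plekhg1 and Zfp36. With that pseudocount a gene outside the 6 was nearest, at 0.0746, ahead of Plekhg1 at 0.141.

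**Figure D5:**
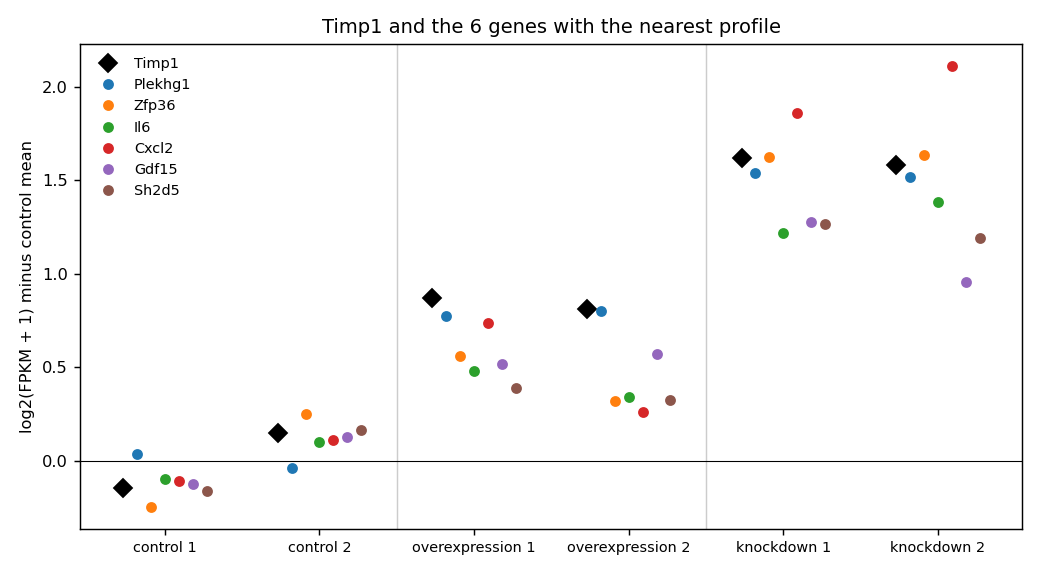
Log2(FPKM + 1) minus the control mean, for Timp1 (diamonds) and the 6 genes nearest to it, in each of the 6 libraries. Plekhg1 lies closest to Timp1 under overexpression and Zfp36 under knockdown, where Cxcl2 lies above both.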

How the data were processed

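The authors deposited FPKM values per gene symbol for 6 libraries. Trimmomatic, HISAT2, Cufflinks, HTSeq, DESeq and build mm10 are named in the submitters' processing notes, without roles or versions. No source used here names the gene annotation, filters or strand setting. FPKM depends on the library total, so a few abundant genes can shift all others. No counts were used.

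Groups follow the sample titles. The model for log2(FPKM + 1), fitted by limma 3.58.1 (R 4.3.3), had a mean per group, 3 residual degrees of freedom and moderation along an expression trend, over the 10721 genes averaging 1 FPKM or more. Fold changes of low genes are understated on this scale. Simulated data for overexpression against control (10721 genes, 20 simulations, normal noise) gave back 96.7% of changes of 0.5 on the log2 scale, with 7.1% of the calls false. The noise was drawn from the spread limma had fitted, and the same model was refitted. These shares are thus not a measure of recovery in the real libraries. Relative depth between libraries was the commonest ratio of their values over low rows, taken as equal fragment numbers. Whole multiples, accepted within 0.15, were sought for Timp3, Mmp2, Mmp14 and Plau, and none were found for Timp3 and Mmp2. Gene positions are from GENCODE M21. Dates replace the symbols of 27 rows.

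The 9 genes, the related lists and the markers were chosen with earlier results of these data known. Named genes were the 9, up to 4 called genes by smallest p in each list and comparison, Serpine2, Plat, Plg and Reck, and the 6 genes nearest to Timp1. Anxa2, Cd63, Syn1 and Syn3 were added after their values were seen. Some genes covered by this rule or by the marker lists are counted but not reported here by name. Alternatives covered the pseudocount, the filter, scaling, the trend, the libraries in the fit and a block for the replicate number.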

Additional observations from a re-analysis of the deposited data

How the results depend on the processing

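Of 357 recomputed log2 fold changes of the 9 genes, 308 kept their side of the threshold or stayed within the spread, 7 lost a call (Mmp15 under overexpression), 8 gained one, and 34 of genes given without a test moved by more than the spread; no called difference turned its sign. Under overexpression the genes called, 165 in all, were 97 without the expression trend and 9 without a filter, and 14 to 172 with a library left out. The count was 14 without control 1, 27 without control 2, 20 without overexpression 1 and 46 without overexpression 2, each leaving a lone library assumed to vary like the others. Called among the 4 tested genes other than Timp1 were 2 after median log ratio scaling, 0 without the trend, without a filter and after quantile normalization, and 0 to 1 with a library left out, in place of 1. In the knockdown comparison 4 were called after quantile normalization and 1 with a filter at 5 FPKM, which leaves out Mmp9, in place of 2, and 2 to 3 with a library left out. Of the 38 related genes, in place of 0 under overexpression, 1 was called after median log ratio scaling, 1 after quantile normalization, 1 with only the 4 libraries compared, and 0 to 1 with a library left out; 11 of the 20 called under knockdown kept their call under every alternative that tested them, the crossed block aside. Scaling by median log ratio gave 2245 higher and 2286 lower genes under knockdown in place of 1590 and 3358, and 1951 higher and 1908 lower between the treated groups in place of 3013 and 1332. Quantile normalization gave 2003 and 2292, and 1930 and 1707.

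The replicate numbers are shared between groups by title only. Deviations of same-numbered libraries correlated at -0.117 (control with overexpression), 0.0069 (control with knockdown) and -0.211 (overexpression with knockdown). Over all tested genes these libraries thus did not deviate together, and whether they share a culture or batch was not tested. With a replicate block 66 genes were called under overexpression, and 0 of the 4 tested genes other than Timp1. With the overexpression numbers crossed in the block, chosen after seeing the data, 258 genes, 3 of those 4 and 2 of the 38 related genes were called.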

Other observations

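Below the filter, some related proteases differed between groups in levels that were not tested and that were picked after their values were seen. Mmp13, the gene of collagenase-3, was listed at 0 in control 1 and overexpression 1, stood at 0.0153 FPKM in control 2 and 0.0168 in overexpression 2, and at 0.161 and 0.0853 under knockdown, so that, as for Mmp14, both knockdown libraries lay above the other 4. Adam8, which encodes a sheddase of leukocytes and tumour cells, stood at 0.25 and 0.181 FPKM in control cells, 0.255 and 0.270 under overexpression, and 0.536 and 0.761 under knockdown. Pcsk1, the prohormone convertase gene of secretory granules, went the other way, with 0.343 and 0.357 FPKM in control cells, 0.272 and 0.239 under overexpression, and 0.0666 and 0.0326 under knockdown. Of the 91 related genes, 12 were listed at 0 in all 6 libraries, Mmp3 and A2m among them.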
